A study of Zea mays with 6 samples.

Results

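In 952 places of the maize genome, a DNase I hypersensitive site (DHS) was present in both husk and V2 stage inner stem tissue (V2-IST), but the husk DHS was at least 1.5 times as wide. DNase-seq finds accessible chromatin from the positions at which the endonuclease DNase I cuts DNA that nucleosomes do not shield. To find these pairs, each husk DHS was matched with the V2-IST DHS it overlapped by at least 1 bp, and only pairs in which neither DHS overlapped a further one were kept. Of 11584 such one-to-one pairs, 952 (8.22%, Wilson interval 7.73% to 8.73%) met the width rule. They are called husk-wide pairs here, and pairs with the opposite difference, 2117 of 11584 (18.3%), are called V2-IST-wide pairs. The other 8515 pairs differed by less than 1.5 times. The pairs were chosen by the DHS widths themselves, so widths and edge positions are given as a description without a test.

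All plants were of the maize inbred line B73 and grew in a greenhouse with 16 h of light per day. Husk was the soft inner layer of the leaves around the ear, taken before pollination with 2 to 5 cm of silk emerged, and V2-IST was the stem of young seedlings without the outer leaves and exposed blades. Husk was represented by 3 libraries from 2 biological replicates and V2-IST by 2 libraries from 2 biological replicates, and 1 library of DNase I-digested naked DNA served as the control in peak calling. Each tissue has a single integrated list, with 15261 DHSs in husk and 18485 in V2-IST, and the lists hold only a chromosome, a start and an end. No value per replicate entered the comparisons, so the differences below could not be set against the variation among replicates, and Wilson intervals (95%) cover counting error only. Read depth was not used here. The study's supplement lists unequal numbers of uniquely mapped reads among the DNase-seq libraries. It also lists unequal numbers of peaks for the 2 V2-IST replicates. What these differences contribute to the widths was not tested. The lists hold no expression values, so the tissue labels were not checked against marker genes.

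Regulatory DNA in plants, such as promoters and enhancers, lies in short stretches where transcription factors bind and nucleosomes are few, and such stretches appear as DHSs. The width of a DHS gives the length of DNA over which cutting was enriched. A broad DHS can hold several binding sites side by side, and DHSs in plants are known to lie mainly near transcription start and termination sites and in intergenic regulatory sequence. No genome sequence or gene annotation entered the work, so the genes next to the named regions are not given.

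The husk-wide pairs made up 6.24% of all husk DHSs and 5.15% of all V2-IST DHSs. The husk DHS was the wider by any amount in 4413 of the 11584 pairs, and 21.6% of these (952 of 4413) reached the ratio of 1.5. Where V2-IST was the wider, 29.7% (2117 of 7118) reached it. The numbers of the 2 kinds of pairs depended on the overall difference in width between the lists. When V2-IST widths were multiplied by 0.895, which makes the summed widths of all pairs equal, 1390 pairs were husk-wide and 1615 were V2-IST-wide, against 952 and 2117 with the widths as deposited. The V2-IST-wide pairs remained the larger number in both cases.

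In the husk-wide pairs, the husk DHS had a median width of 856 bp (order statistic interval 814 to 901 bp) and the V2-IST DHS one of 376.5 bp (363 to 396 bp). The middle 50% measured 555 to 1269 bp in husk and 270 to 556 bp in V2-IST. The range was 216 to 4012 bp in husk and 131 to 2316 bp in V2-IST. Over all pairs the medians were 474 bp in husk and 527 bp in V2-IST, so the husk-wide pairs combined wide husk DHSs with narrow V2-IST DHSs. The median ratio was 1.93, and the median difference was 429.5 bp. Most pairs had a ratio below 2: 440 of 952 (46.2%) had a ratio of at least 2, 148 (15.5%) one of at least 3 and 19 (2.00%) one of at least 5. The 2 pairs just inside it measured 885 bp in husk against 590 bp in V2-IST on chromosome 4, and 432 bp in husk against 288 bp in V2-IST on chromosome 7. Just outside it were pairs of 787 bp in husk and 525 bp in V2-IST on chromosome 5, and of 607 bp in husk and 405 bp in V2-IST on chromosome 2.

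**Figure D1:**
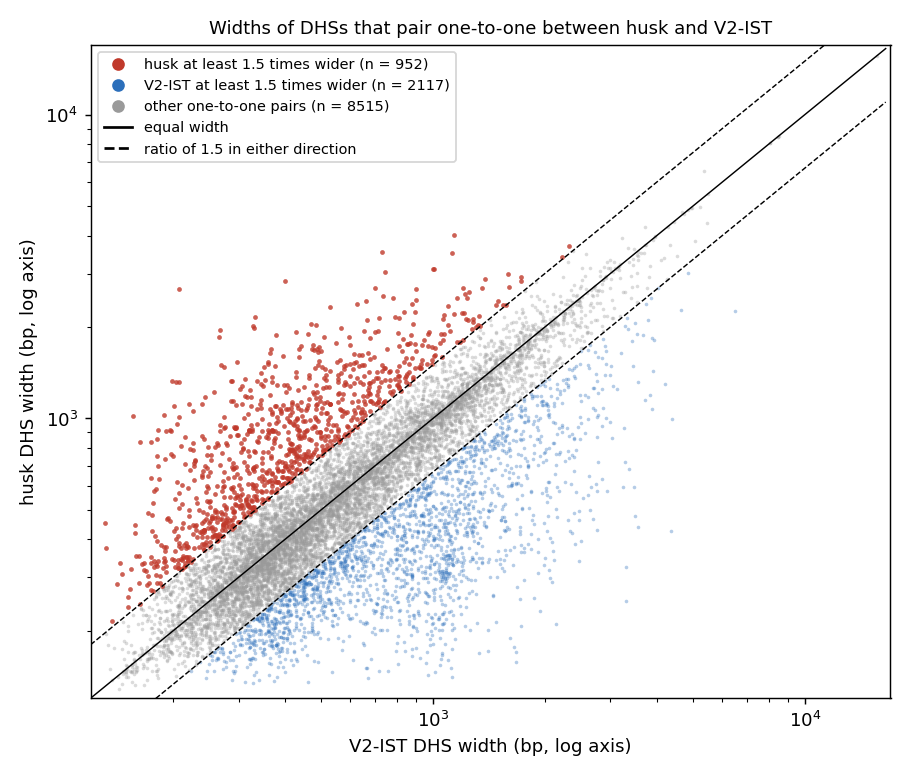
Each point is 1 of 11584 one-to-one pairs, with the V2-IST width on the horizontal and the husk width on the vertical axis, both in bp on log axes. The 952 husk-wide pairs (red) lie above the upper dashed line by rule, with husk widths of up to 4012 bp, and the 2117 V2-IST-wide pairs (blue) lie below the lower dashed line.

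The share of husk-wide pairs fell with the width of the V2-IST DHS. It was 24.1% (75 of 311) for V2-IST DHSs under 200 bp, 16.4% (240 of 1462) from 200 to below 300 bp, 9.45% (350 of 3703) from 300 to below 500 bp and 6.63% (238 of 3591) from 500 to below 1000 bp. From 1000 to below 2000 bp it was 2.28% (47 of 2060), and only 2 of 457 pairs (0.438%) with a V2-IST DHS of 2000 bp or more were husk-wide. By husk width the order was turned round, with 0.720% (14 of 1944) from 200 to below 300 bp and 19.0% (60 of 316) at 2000 bp or more. A ratio rule gives both trends in part by construction, since a narrow DHS in the denominator raises the ratio.

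The 952 pairs held a large part of the sequence by which husk DHSs reached beyond their V2-IST partners. Over all 11584 pairs, husk DHSs covered 1008411 bp outside the partner, and 523775 bp of these (51.9%) lay in husk-wide pairs. The rule picks pairs with much extra sequence, so this share is a description. In a typical pair the V2-IST DHS covered 48.8% of the husk DHS (median), where the rule allows at most 66.7%, while the husk DHS covered the whole V2-IST DHS (median 100%).

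The extra husk sequence lay mostly on 1 side of the V2-IST DHS. In 726 of 952 pairs (76.3%, Wilson interval 73.5% to 78.9%), at least 80% of the sequence outside the V2-IST DHS was on 1 side. Pairs in which the V2-IST DHS protruded beyond the husk DHS counted as 1-sided by construction. The share was thus open only in the 613 of 952 pairs without such a protrusion. Lower and higher coordinates were chosen about equally, in 360 and 366 pairs. Both sides were extended to a similar degree, with less than 60% on either side, in 75 pairs (7.88%). The farther pair of edges was a median of 409.5 bp apart, whereas the nearer pair of edges was 42 bp apart (order statistic interval 38 to 48 bp) and at most 50 bp apart in 528 pairs (55.5%). In the other pairs with similar widths, the nearer edges were 17 bp apart and the farther edges 62 bp (medians). In most husk-wide pairs, a boundary was thus shared to within 50 bp, and the difference in width lay at the opposite boundary.

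The V2-IST DHS lay entirely within the husk DHS in 613 of 952 pairs (64.4%, Wilson interval 61.3% to 67.4%). In the remaining pairs it protruded on 1 side, so the husk DHS was both wider and shifted. The extension on the longer side was under 200 bp in 221 pairs (23.2%) and from 200 to below 500 bp in 356 pairs (37.4%). It was from 500 to below 1000 bp in 288 pairs (30.3%) and 1000 bp or more in 87 pairs (9.14%). The longest measured 2581 bp.

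The V2-IST-wide pairs showed a similar geometry in the opposite direction. The extension was on 1 side in 76.3% of husk-wide pairs and in 73.2% (1549 of 2117, Wilson interval 71.2% to 75.0%) of V2-IST-wide pairs. The median extension on the longer side was 409.5 bp in husk-wide pairs and 416 bp in V2-IST-wide pairs. The narrower DHS lay entirely within the wider one in 64.4% of husk-wide pairs, against 74.4% (Wilson interval 72.5% to 76.2%) of V2-IST-wide pairs. Containment and extension on 1 side rest on the same edges as the width rule, and a pair without containment counts as 1-sided by construction. These shares are therefore a description.

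**Figure D2:**
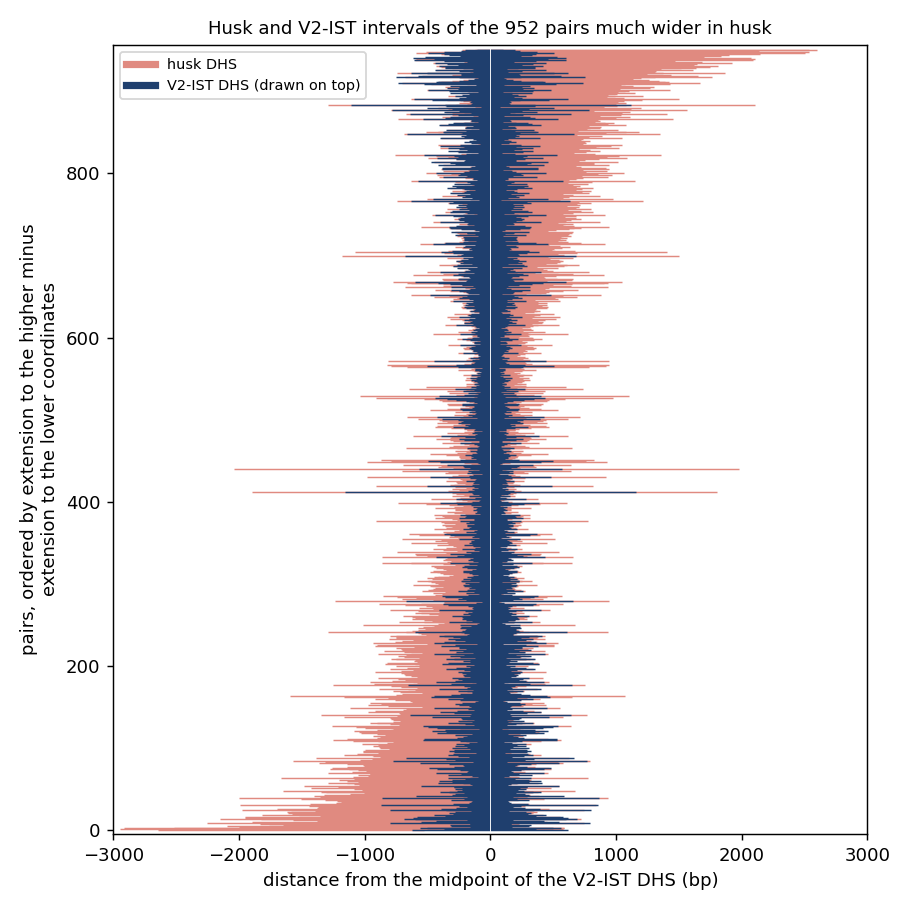
Each of the 952 rows is 1 husk-wide pair, with the husk DHS in red and the V2-IST DHS in blue on top, placed by distance in bp from the midpoint of the V2-IST DHS and ordered by the side of the extension. The red sequence lies to the left of the blue at the bottom and to the right at the top, and few rows have long red stretches on both sides.

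The largest ratio was found on chromosome 3, where the husk DHS from 214606086 to 214608748 measured 2663 bp and the V2-IST DHS from 214606105 to 214606312 measured 208 bp, a ratio of 12.8. The starts differed by 19 bp, and the husk DHS reached 2436 bp further at the end. A husk-only DHS, one without an overlapping DHS in the V2-IST list, lay 10670 bp away between midpoints. The next V2-IST DHS of any kind was 125900 bp away, so this husk DHS stood in a stretch with few other DHSs in V2-IST.

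The next largest ratios were 7.29 on chromosome 9, 7.06 on chromosome 5, 6.96 on chromosome 10 and 6.69 on chromosome 4. On chromosome 9, the husk DHS from 156988349 to 156990303 measured 1955 bp and the V2-IST DHS 268 bp, and the V2-IST DHS began 65 bp before it. On chromosome 5, the husk DHS from 82829633 to 82832456 measured 2824 bp and the V2-IST DHS 400 bp, with starts 23 bp apart. In both, nearly all of the extra husk sequence lay at higher coordinates, 1752 bp on chromosome 9 and 2401 bp on chromosome 5. The pair on chromosome 10, with a husk DHS from 139992847 to 139994698 (1852 bp) and a V2-IST DHS of 266 bp, was extended on both sides, by 1179 and 407 bp. The pair on chromosome 4, with a husk DHS from 185276944 to 185278275 (1332 bp) and a V2-IST DHS of 199 bp, was extended by 1117 bp at lower and 16 bp at higher coordinates. Of these 5 pairs, 4 were thus extended on 1 side and the pair on chromosome 10 on both.

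By difference in bp, the largest was on chromosome 5 from 4779180 to 4783191, the widest husk DHS of all husk-wide pairs. It measured 4012 bp in husk and 1138 bp in V2-IST, a difference of 2874 bp. It was extended almost equally, by 1467 bp at lower and 1407 bp at higher coordinates, unlike most pairs. The second was on chromosome 1, where a husk DHS from 3572269 to 3575789 (3521 bp) reached 2581 bp below and 210 bp above a V2-IST DHS of 730 bp. On chromosome 10, a husk DHS from 76616758 to 76620259 (3502 bp) and a V2-IST DHS of 1126 bp ended 24 bp apart and differed by 2352 bp at the start.

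The remaining pairs among the 5 widest in husk lay close to the threshold. The husk DHS on chromosome 3 from 191227737 to 191231434 measured 3698 bp and its V2-IST partner 2316 bp, a ratio of 1.60. The one on chromosome 9 from 124178108 to 124181506 measured 3399 bp and its partner 2230 bp, a ratio of 1.52. Both V2-IST partners were wide, and they were the 2 husk-wide pairs with a V2-IST DHS of 2000 bp or more.

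Next, the surroundings of the husk-wide pairs were examined, with distances between midpoints, which the width rule did not use. Whether a neighbour was present in only 1 tissue was set by the same overlaps that define the pairs. A wide husk DHS that also overlaps a neighbouring V2-IST DHS forms no one-to-one pair, and that neighbour is not V2-IST-only. The reverse holds for a wide V2-IST DHS. What this selection contributes to the shares below was not tested. A DHS present only in husk lay within 5 kb of 95 of 952 husk-wide pairs (9.98%, Wilson interval 8.23% to 12.0%). The share was 5.20% (110 of 2117, 4.33% to 6.23%) for V2-IST-wide pairs and 6.92% (589 of 8515, 6.40% to 7.48%) for the other pairs. The interval of the husk-wide pairs overlapped neither of these. The order was the same within 10 kb, at 15.5% for husk-wide, 9.45% for V2-IST-wide and 11.1% for the other pairs, and within 50 kb, at 31.1%, 22.4% and 25.4% in the same order of classes. Within 1 kb the shares were 0.315%, 0.189% and 0.247% with overlapping intervals, and at this distance a wide husk DHS leaves less room for a neighbour.

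For DHSs present only in V2-IST the order was turned round within 5 and 10 kb. Such a DHS lay within 5 kb of 120 of 952 husk-wide pairs (12.6%, Wilson interval 10.6% to 14.9%), 391 of 2117 V2-IST-wide pairs (18.5%, 16.9% to 20.2%) and 1229 of 8515 other pairs (14.4%, 13.7% to 15.2%). The intervals of the husk-wide and V2-IST-wide pairs did not overlap, whereas those of the husk-wide and the other pairs did. Within 10 kb the shares were 20.4% for husk-wide, 27.6% for V2-IST-wide and 22.3% for the other pairs. Within 50 kb they were 44.4%, 48.9% and 43.7% in the same order of classes, and within 1 kb 0.630%, 0.756% and 1.21%, so the order of all 3 classes did not hold at these distances. Within 5 and 10 kb, husk-only DHSs were thus found more often near husk-wide pairs, and V2-IST-only DHSs more often near V2-IST-wide pairs. These names mean absence from the other list, and tissue specificity was not tested. Neighbouring DHSs are not independent, the intervals do not allow for this, and no test of the difference was made.

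The counts were then repeated within parts of the data, a choice made after these values were seen. Each chromosome was divided into 10 equal parts. Outside the outermost part at each end, 10.7% of husk-wide (Wilson interval 8.45% to 13.4%), 4.38% of V2-IST-wide (3.39% to 5.63%) and 6.91% of other pairs (6.28% to 7.61%) had a husk-only DHS within 5 kb. In the outermost parts the shares were 8.77% (Wilson interval 6.21% to 12.2%), 6.50% (5.01% to 8.41%) and 6.93% (6.06% to 7.91%), and all 3 intervals overlapped. Among V2-IST DHSs from 200 to below 500 bp, the shares were 8.31% for husk-wide (6.34% to 10.8%) and 6.40% for other pairs (5.69% to 7.19%). These intervals overlapped. Among V2-IST DHSs from 500 to below 1000 bp the shares were 12.6% (8.97% to 17.4%) and 7.35% (6.41% to 8.42%). Among husk DHSs from 1000 to below 2000 bp they were 11.7% (8.54% to 15.7%) and 7.60% (6.27% to 9.19%), again with overlapping intervals, as were those from 500 to below 1000 bp, at 9.37% (6.87% to 12.6%) and 7.74% (6.77% to 8.84%). The share was thus the higher for husk-wide pairs in each of these groups, but the intervals separated them from the other pairs in only some. For V2-IST-only DHSs, the share was lower for husk-wide than for V2-IST-wide pairs in each of these groups. The intervals were separate outside the outermost parts, at 10.5% (8.30% to 13.2%) and 16.3% (14.4% to 18.4%), and among husk DHSs from 500 to below 1000 bp, at 12.7% (9.73% to 16.3%) and 21.4% (17.8% to 25.4%). They overlapped in the outermost parts, at 16.4% (12.8% to 20.7%) and 22.0% (19.3% to 24.9%). They also overlapped among husk DHSs from 1000 to below 2000 bp, at 12.0% (8.81% to 16.1%) and 20.7% (14.4% to 28.7%). For V2-IST DHSs from 200 to below 500 bp the overlap was slight, at 11.9% (9.50% to 14.7%) and 17.7% (14.6% to 21.3%). From 500 to below 1000 bp the shares were 14.3% (10.4% to 19.3%) and 16.1% (13.6% to 18.9%). Overlapping intervals do not show that 2 shares are equal, and separate intervals are not a test of a difference.

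The distance to the next DHS of the same list differed in husk and hardly in V2-IST. The gap from the husk DHS to the next husk DHS had a median of 7360 bp in husk-wide pairs (order statistic interval 6213 to 9700 bp), 15611 bp in V2-IST-wide pairs (13177 to 18099 bp) and 12190 bp in the other pairs (11390 to 13187 bp). The gap from the V2-IST DHS to the next V2-IST DHS had a median of 7508 bp in husk-wide pairs (6103 to 9616 bp), 7139 bp in V2-IST-wide pairs (6296 to 8589 bp) and 8125 bp in the other pairs (7539 to 8661 bp). In husk, the next DHS was thus closer for husk-wide pairs. The gap starts at the edge of the husk DHS, which the width rule used, and what the extra width contributes to it was not tested. Another one-to-one pair lay within 5 kb of 30.7% of husk-wide pairs (27.8% to 33.7%), 25.7% of V2-IST-wide pairs (23.9% to 27.6%) and 28.4% of the other pairs (27.4% to 29.3%). The intervals of the husk-wide and the other pairs overlapped. Within 1 kb the share was lowest for husk-wide pairs, at 0.315%, against 0.661% for V2-IST-wide and 1.57% for the other pairs.

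When a one-sided husk-wide pair had a husk-only DHS within 5 kb, the nearest one lay on the extended side in 39 of 70 cases (55.7%, Wilson interval 44.1% to 66.8%). This interval includes 50%. A husk-only DHS cannot lie within the husk extension itself, which leaves less room on the extended side. Thus 50% is not an exact expectation, and the count cannot decide whether there was a preference.

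**Figure D3:**
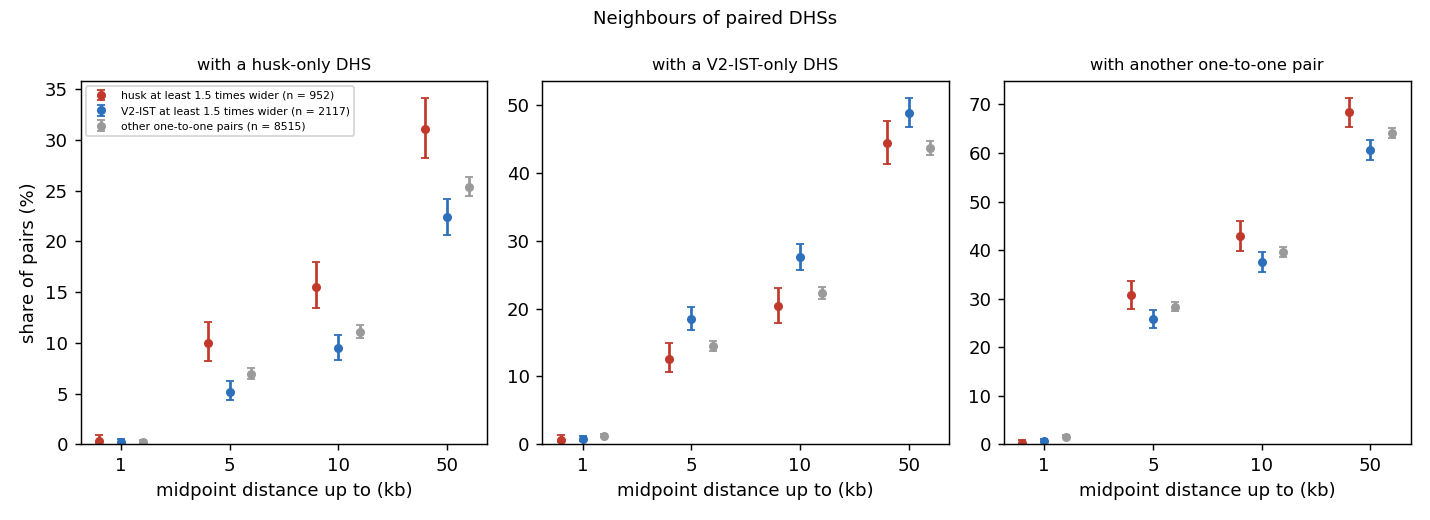
The share of pairs (%) with a husk-only DHS, a V2-IST-only DHS or another one-to-one pair within 1, 5, 10 and 50 kb between midpoints, for husk-wide pairs (red), V2-IST-wide pairs (blue) and other pairs (grey), with Wilson intervals (95%) as bars. At 5 kb, husk-wide pairs are highest for husk-only DHSs (9.98%) and lowest for V2-IST-only DHSs (12.6%).

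Husk-wide pairs also lay near each other. The pair nearest to a husk-wide pair was itself husk-wide in 110 of 952 cases (11.6%, Wilson interval 9.68% to 13.7%), against 157 of 2117 cases for V2-IST-wide pairs (7.42%, 6.38% to 8.61%) and 693 of 8515 for the other pairs (8.14%, 7.58% to 8.74%). The background, the share of husk-wide pairs among all pairs, was 8.22%. Another husk-wide pair lay within 10 kb of 85 husk-wide pairs (8.93%, 7.28% to 10.9%), 3.92% of V2-IST-wide pairs and 4.69% of the other pairs. Within 100 kb the shares were 20.4%, 15.5% and 16.9% in the same order of classes. The nearest pair was wider in husk by any amount in 44.1% of cases for husk-wide pairs (41.0% to 47.3%), 35.5% for V2-IST-wide pairs (33.5% to 37.5%) and 39.2% for the other pairs (38.2% to 40.3%). These shares count mutual neighbours from both sides, so they hold fewer independent cases than the numbers state.

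Still, most husk-wide pairs stood alone. Along the chromosomes, 758 of the 952 had no husk-wide pair next to them among the one-to-one pairs, 172 formed 86 runs of 2, 18 formed 6 runs of 3 and 4 formed a single run of 4. Runs of at least 3 were found on chromosomes 1, 2, 3, 5 and 10, with 3 of the 7 on chromosome 2. The number of such runs that the background share of 8.22% alone would give was not computed. The runs are therefore described as examples only.

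The run of 4 spanned 14378 bp on chromosome 2 from 15871524 to 15885901. Its husk DHSs measured 717, 2534, 2350 and 475 bp, and their V2-IST partners 422, 734, 1097 and 292 bp. The second pair shared its start to within 24 bp and was extended at higher coordinates, whereas the third was extended at lower coordinates, so that the husk sequence of both grew into the stretch between them. Between the third and the fourth lay a husk DHS that overlapped 2 V2-IST DHSs and was therefore no one-to-one pair.

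The most compact run, on chromosome 5 from 198936704 to 198942204, held 3 pairs within 5501 bp. The husk DHSs measured 640, 2486 and 332 bp, and the V2-IST DHSs 292, 783 and 206 bp. Together the 3 husk DHSs covered most of the stretch, and in V2-IST the same stretch was covered in 3 short and separate pieces. The other 5 runs spanned 25947 to 92101 bp, with husk widths of 444 to 2036 bp and ratios of 1.51 to 4.98.

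**Figure D4:**
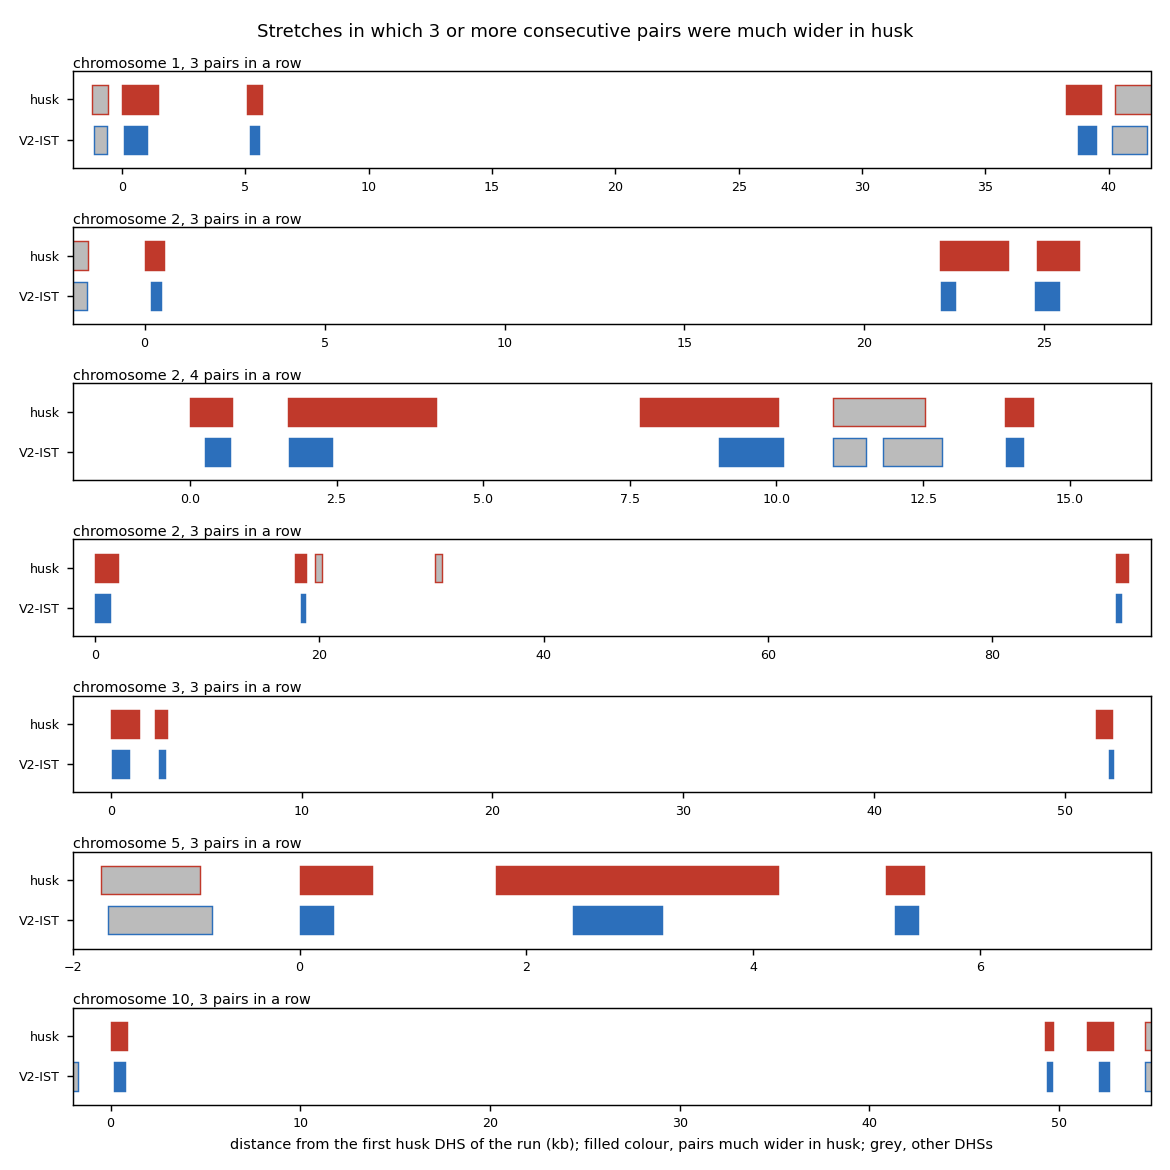
The 7 stretches with at least 3 consecutive husk-wide pairs, with husk DHSs in the upper and V2-IST DHSs in the lower row of each panel and the distance from the first husk DHS in kb. Husk-wide pairs are filled in red and blue and other DHSs in grey, and each red box is wider than the blue box it overlaps.

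Along the chromosomes, husk-wide pairs, like shared DHSs in general, were most frequent towards the ends, but their share in the centre was lower. The outermost parts held 35.9% of husk-wide pairs (342 of 952, Wilson interval 32.9% to 39.0%), 38.5% of V2-IST-wide pairs (36.4% to 40.6%) and 34.2% of the other pairs (33.2% to 35.3%). The pair of central parts held 7.88% of husk-wide pairs (75 of 952, 6.33% to 9.76%), 10.5% of V2-IST-wide pairs (9.30% to 11.9%) and 11.2% of the other pairs (10.5% to 11.9%). The lower share of husk-wide pairs in the centre depended on the threshold. With a ratio of at least 2 it was 10.2% (7.73% to 13.4%), close to that of the other pairs. With both DHSs of at least 300 bp it was 6.75% (5.05% to 8.97%). Chromosome lengths were set to the highest DHS end on each chromosome.

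**Figure D5:**
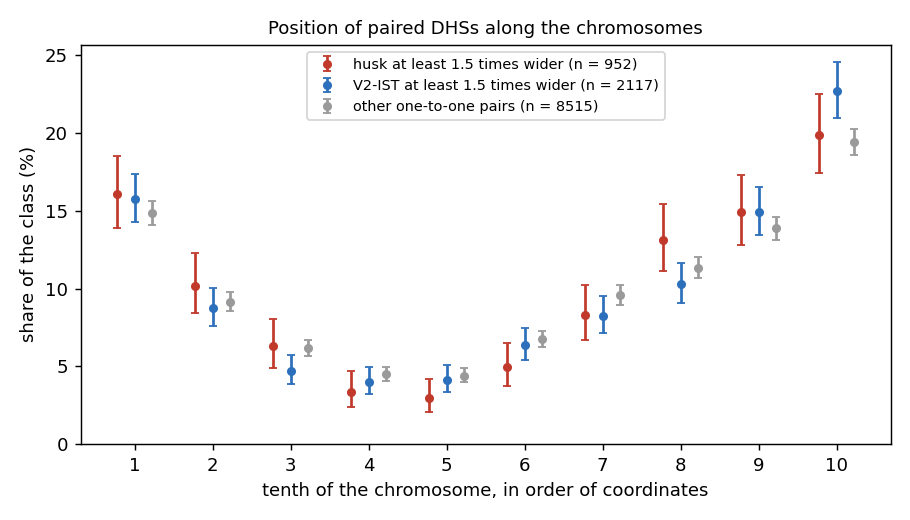
The share of each class (%) in 10 equal parts of the chromosomes, in order of coordinates, for husk-wide pairs (red), V2-IST-wide pairs (blue) and other pairs (grey), with Wilson intervals (95%) as bars. Each class is lowest in the fourth or the fifth part, and husk-wide pairs range from 2.94% in the fifth part to 19.9% in the last.

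All 10 chromosomes carried husk-wide pairs. Their share of the one-to-one pairs was highest on chromosome 2 at 9.88% (130 of 1316, Wilson interval 8.38% to 11.6%) and lowest on chromosome 10 at 6.50% (48 of 739, 4.93% to 8.51%). These intervals overlapped slightly, and only the interval of chromosome 2 lay wholly above the share over all chromosomes of 8.22%, by a small margin and among 10 chromosomes compared. The density ranged from 0.318 husk-wide pairs per Mb on chromosome 10 and 0.320 on chromosome 4 to 0.532 on chromosome 2.

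Finally, the 4 intergenic loci that the study examined with ChIP-qPCR primers were looked up: the distal enhancers of b1 (which encodes a regulator of anthocyanin pigment) and tb1 (a repressor of branching), the DICE element upstream of the benzoxazinoid gene bx1, and a further candidate on chromosome 5 (H108 in the study's text, H106 in its primer table). Husk DHSs were present at all 4 loci and V2-IST DHSs at 3. None of the 4 held a husk-wide pair. At tb1 the DHS measured 416 bp in husk and 393 bp in V2-IST. At DICE it measured 1138 bp in husk against 1762 bp in V2-IST, and at the candidate on chromosome 5 325 bp in husk against 957 bp in V2-IST, so both of these were V2-IST-wide. At b1 a DHS of 830 bp was found in husk only.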

How the data were processed

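The authors aligned DNase-seq reads with BWA, removed reads with a mapping quality below 20 and used MACS2 for peak calling per biological replicate against naked DNA. They pooled the technical husk libraries and kept peaks that overlapped by at least 70% between biological replicates. How the edges of a kept peak were set from both replicates is not given for DNase-seq in the sources used here (merging is mentioned for H3K9ac regions), and this bears on every width. The deposited files hold 3 columns per DHS, and no score. Coordinates are 1-based on AGPv4, named in the study's methods. The labels name B73 RefGen_v3, but all 4 primer loci that the study lists on AGPv4 hold a husk DHS.

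Width is end minus start in the deposited intervals. Shares have Wilson intervals and medians order statistic intervals (95%). The pairs, lists and comparisons were chosen with earlier results of these data known. Regions named are the 5 pairs with the largest ratio, the 5 with the largest difference, the 5 widest in husk, the 2 on each side of the threshold, all runs of at least 3, and the primer loci. The alternatives changed the ratio, the overlap rule, the minimum width, the scaling of widths, the number of parts and the midpoint. The position and width groups for neighbours were added after seeing the data. The code was tested on simulated lists. Software was matplotlib 3.10.9 for figures, and scipy 1.17.1, pandas 2.3.3 and numpy 2.4.6 under Python 3.11.15. Annotation, GC content and motifs were planned but not analysed here, since a genome of the build was not used here.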

Additional observations from a re-analysis of the deposited data

How the results depend on the processing

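Of 36 values recomputed for 12 results, 21 stayed within the interval of the value in the report (counts, within 1.5 times) and 15 moved. The number of husk-wide pairs was 1816 with a threshold midway between 1 and 1.5, 440 with a ratio of at least 2 and 466 with an overlap required over 50% of both DHSs, all by construction. With a ratio of at least 2, 80% of pairs were extended on 1 side and 10.2% lay in the central parts. At this ratio 6.59% had a husk-wide pair as the nearest pair and 5.91% had another within 10 kb. The background was lower too, with 440 of 11584 pairs qualifying against 952 at a ratio of 1.5. These 2 shares can therefore not be set against the 8.22% given above. With DHSs of at least 300 bp, the median widths were 1061 bp in husk and 476 bp in V2-IST, and 40.3% of pairs lay in the outermost parts. Extension on 1 side at 90% held for 61.2%. With 20 parts, which are narrower, the outermost held 19.3% and the central 3.68%. The shares of the other pairs by position were not computed with 20 parts or with the minimum width. V2-IST-only DHSs within 5 kb were found for 16.4% of husk-wide pairs in the outermost parts and 10.5% outside them, and the cause was not tested. The share with a husk-only DHS within 5 kb ranged from 8.31% to 12.6% over all alternatives and groups by position or width that were run. No paired analysis was possible because the lists carry no values per replicate, which also prevented leaving replicates out, and a stricter peak threshold could not be run for lack of a score. The promoter alternative was not run.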
